A study of Mus musculus with 3 samples.

Results

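The regions described here are stretches of open chromatin that the lists of both white fat depots held at high tag counts and the list of brown fat did not hold. DNase-seq was done on fat cells grown from 3 depots, with 1 library each: white fat of the epididymis (eWAT), white fat of the groin (iWAT, inguinal) and brown fat (BAT). Overlapping or touching sites of the 3 lists were merged, and a region was taken if it held an eWAT and an iWAT site but no BAT site, with both sites among the top 25% by normalized tag count of the list they came from, called strong below. Of 99297 merged regions, 941 met this rule, and they are called white-pair regions below. The mice of all 3 groups were NMRI males aged 4 to 5 weeks, and the labels name no genotype or treatment that differs between them. In each group the stromal-vascular cells, a mixture that includes fat cell precursors, were cultured in medium with 30 nM insulin, 10% newborn calf serum and 1 µM rosiglitazone, which activates the nuclear receptor PPARγ, and harvested 8 days after they were plated. The brown fat combined tissue from interscapular, axillary and cervical depots. Per the labels' protocols, cultures were taken only if more than 50% of the cells had differentiated, so the remaining cells of the mixture are part of each library. The lists hold no expression values, so the depot identity of the cultures could not be checked against marker genes. With no replicate of any depot, no test between depots was made, and every difference below is between single libraries.

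DNase I cuts DNA where nucleosomes have been displaced, which is mostly at promoters and enhancers bound by transcription factors. Fat cells of all depots share a core of such sites, at which PPARγ and C/EBP factors are known to bind, and add sites that differ with the developmental origin of the depot. White fat cells store lipid in a large droplet. Brown fat cells burn lipid to make heat, and inguinal fat can take on brown features in the cold, whereas epididymal fat lies inside the abdomen and does so less readily. Sites open in both white depots and closed in brown fat would be candidates for elements shared by white fat cells. A list of called sites shows such a pattern only indirectly, because a site can be missing from a list when the caller placed it next door or when it fell under the caller's limits.

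The eWAT list held 60974 sites, the iWAT list 63214 and the BAT list 48308, each 220 or 222 bp wide. Normalized tag counts were whole multiples of 0.595 in eWAT, 0.985 in iWAT and 0.857 in BAT, which is taken as the worth of 1 tag. A site entered the top 25% at 13.7 in eWAT (23 tags), 20.7 in iWAT (21 tags) and 18 in BAT (21 tags). The lowest fold of tag density over the local surroundings was 4 in each list. Counts of this size give coarse values, and the intervals printed below (exact, 95%) cover counting error only, over regions that are not independent.

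Presence in the lists and tag count chose the white-pair regions, so both are given as a description. Of the regions strong in both eWAT and iWAT, 9838 in all, BAT also held 8897 and lacked 941, a share of 9.56% (95% interval 8.99 to 10.2). Of the 11197 regions in the eWAT and iWAT lists only, the 941 made up 8.40%, while 8834 were strong in neither white list, 660 only in eWAT and 762 only in iWAT. The mirrored rule gave 743 regions strong in iWAT and BAT that eWAT lacked (8.79% of 8450) and 606 strong in eWAT and BAT that iWAT lacked (7.40% of 8185). The count depends on the merging: joining sites up to 200 bp apart gave 395 regions, not all of them among the 941. The BAT list was the shortest of the 3. With each list limited to its 48308 highest sites, which also moves the limits of the top 25%, the 3 shares were 8.50% (7.89 to 9.15), 8.33% (7.71 to 8.98) and 7.41% (6.82 to 8.02) in the same order, and the intervals of the former pair largely coincided.

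Among themselves the white-pair regions were modest rather than extreme. Each consisted of 1 eWAT and 1 iWAT site, and the median width was 249 bp (222 to 442). The eWAT tag count ran from 13.7 over a median of 17.2 to 124.3, and the iWAT tag count from 20.7 over 27.6 to 204.9, each on the scale of its own library. Most thus lay not far above the limit: 74 regions sat exactly on it in eWAT and 62 in iWAT. Of the 941, 372 were above the 90th percentile of the eWAT list, 387 above that of the iWAT list and 245 above both. Regions with a higher tag count in the white lists were less often missing from BAT. The 9838 regions were split into 4 nearly equal classes by white rank, taken as the lower of both percentiles. White-pair regions made up 13.2% of the lowest class, 11.6% and 8.19% of the middle classes and 5.01% of the highest.

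The ranks in both white libraries were close for most regions. The median difference between the percentile in eWAT and in iWAT was 3.97 points, 568 regions (60.4%) differed by at most 5 points, and the largest difference was 19.4 points. Neither depot prevailed, with a higher percentile in eWAT for 463 regions and in iWAT for 478. Spearman's rho of the tag counts across the 941 regions was 0.54, against 0.66 across the 8897 regions that BAT held too. These values describe a range cut off by the rule, and regions of 1 library share its depth. At the limit, the regions just inside included chr12:13261791-13262016, chr12:60823652-60823951 and chr16:14939957-14940260, each with 13.7 in eWAT and 20.7 in iWAT. Just outside were chr11:83271352-83271574, chr16:25158472-25158852 and chr1:20059987-20060218, with 13.1 in eWAT, 1 tag too few, and 50.2, 45.3 and 38.4 in iWAT.

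**Figure D1:**
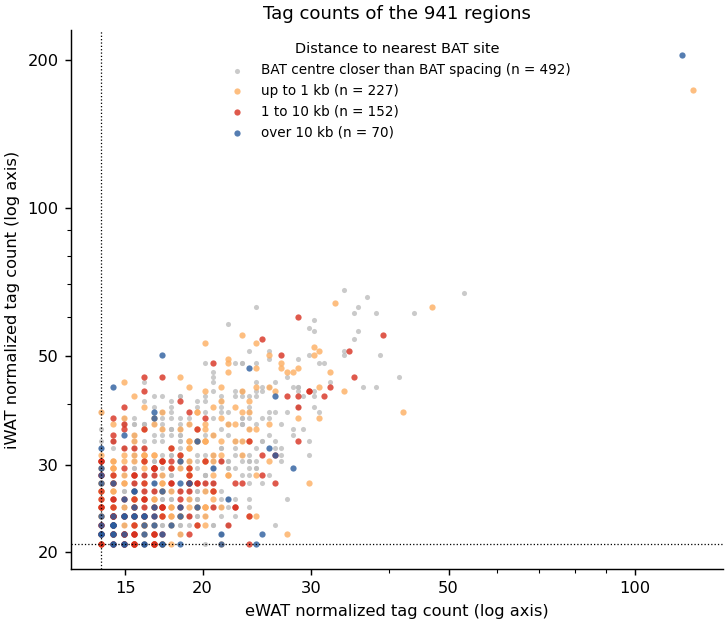
Normalized tag count in eWAT (x axis) and iWAT (y axis) of each of the 941 white-pair regions, both on log axes, coloured by the distance to the nearest BAT site; dotted lines mark the limits of 13.7 and 20.7. Most regions lie close to the limits, those over 10 kb from a BAT site mainly so, and 2 regions stand far above the rest.

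Most white-pair regions had a BAT site right beside them. The median distance, edge to edge, from the region to the nearest BAT site was 118 bp (95% interval 104 to 133), with quartiles at 54 and 847 bp. A BAT site lay within 50 bp of 212 regions (22.5%), within 200 bp of 580 (61.6%) and within 1 kb of 719 (76.4%, 73.6 to 79.1). Among all 11197 regions of the eWAT and iWAT lists only, the share with a BAT site within 1 kb was 26.3%, and among the 10256 not strong in both it was 21.7% (20.9 to 22.5), with a median distance of 8507 bp. Regions strong in both white lists were therefore far more often next to a BAT site than those not strong in both. The latter include 660 strong only in eWAT and 762 strong only in iWAT. The contrast rests on ranking by tag count: regions ranked by their fold over the surroundings instead lay a median of 16227 bp from a BAT site, with 21.5% within 1 kb. In the mirrored sets the distances were also short, and the missing list had a site within 1 kb of 68.5% (65.0 to 71.8) of the regions strong in iWAT and BAT and of 88.1% (85.3 to 90.6) of those strong in eWAT and BAT.

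**Figure D2:**
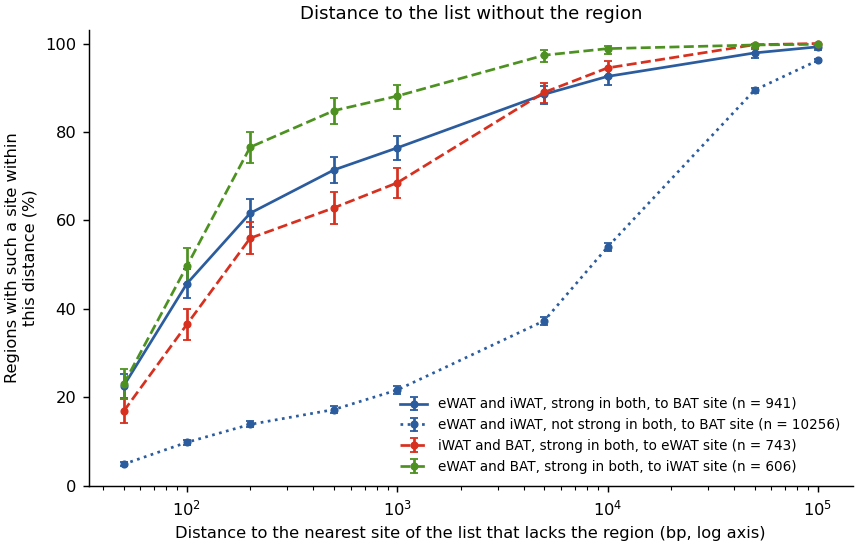
Share of regions (y axis, %) with a site of the list that lacks them within a given distance (x axis, bp, log axis); points are shares and bars exact 95% intervals. The white-pair regions (solid line) reach 61.6% at 200 bp and 76.4% at 1 kb, while regions of the same lists not strong in both (dotted line) reach 21.7% at 1 kb.

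Sites of 1 list did not lie arbitrarily close. No 2 sites of the BAT list had centres closer than 397 bp, and the smallest spacings were 361 bp in eWAT and 357 bp in iWAT. In 492 white-pair regions (52.3%, 49.0 to 55.5) the centre of a BAT site lay closer than 397 bp to the centres of both white sites, so a further BAT site centred there would have been nearer to its neighbour than any pair in that list. Whether the caller was set to a minimum spacing is not stated, and its part in these absences was not tested. The BAT centre was a median of 299 bp from the eWAT centre and 298 bp from the iWAT centre, a value held in a narrow range by the rule, since sites that do not overlap lie at least a site's width apart and the group ends at 397 bp. The 2 white centres, which had to overlap or touch to form 1 region, lay a median of 25 bp apart. Overlap also chose the strong regions that BAT held as well, and in those with 1 site from each list (8892) the centres differed by a median of 29 bp between eWAT and iWAT, 32 bp between eWAT and BAT and 32 bp between iWAT and BAT. The neighbouring BAT site was held by no white list at its own place in 478 of the 492 regions (97.2%). How the group was cut favours this. A white site centred there would mostly lie closer to its white neighbour than the smallest spacings of 361 and 357 bp. The BAT site was itself in the top 25% of BAT in 306 regions (62.2%, 57.7 to 66.5). This was not particular to the 492. The nearest BAT site was strong in 64.3% of the 227 other white-pair regions with one within 1 kb, and in 58.7% of all 941.

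Tags were also less sharply centred in these 492 regions than in the strong regions held by all 3 lists. The median focus ratio, the deposited fraction of tags that fall where a single sharp peak would place them, was 0.644 in eWAT and 0.660 in iWAT. It was 0.691 and 0.710 in the strong regions held by all 3 lists, and 0.711 and 0.706 in the white-pair regions over 10 kb from a BAT site. The 227 other white-pair regions with a BAT site within 1 kb lay in between, at 0.660 and 0.674. The lower ratio was thus not limited to the 492. The focus ratio comes from the same tags as the tag count. Whether DNase I cut the same stretch in brown fat cells at a lower level could not be read, since the lists give tags only at called sites.

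The strongest white-pair regions show this placement. Leaving aside the 2 highest, 8 of the 10 regions with the highest summed ranks lay 19 to 417 bp from a BAT site, and in 7 of the 8 that BAT site ranked at the 98th percentile of BAT or higher. The region chr3:142283120-142283346 held 52.9 in eWAT and 67.0 in iWAT, and a BAT site with 56.5 began 19 bp further on. At chr8:47953830-47954053 the values were 44.0 in eWAT and 61.1 in iWAT, with a BAT site of 42.0 at 105 bp. The region chr15:62160347-62160593 held 35.7 and 63.0, and the BAT site of 66.8 beside it, 80 bp away, ranked 117 in the BAT list. Each depot thus had a strong site within 500 bp there. That the BAT site does not overlap follows from the rule.

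The exception among the 8 was chr15:35756363-35756595. It held 33.9 in eWAT, 15.2 times above its surroundings, and 68.0 in iWAT, 23.2 times above, whereas the BAT site 51 bp away held 17.1 (20 tags) at the 73.8th percentile of BAT. Of the remaining 4 regions, chr17:88861976-88862226 (36.9 and 66.0), chr9:106183350-106183582 (38.1 and 61.1) and chr4:47306614-47306882 (35.1 and 61.1) had a BAT site 84, 108 and 54 bp away. The region chr15:74916597-74916823 (47.0 and 63.0) had one at 417 bp, which overlapped an iWAT site there. Closest of all were chr13:113191399-113191657, chr14:47619003-47619233 and chr5:20674708-20674959, which missed a BAT site by 1 bp. Those that missed one by 2 bp included chr10:70470585-70470871 and chr11:73049741-73050018. The BAT sites beside these 5 named regions held between 12 and 18 normalized tags. None was strong except that at chr11:73049741-73050018, which equalled the limit of 18.

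The 2 highest white-pair regions differed from the other 8 in their surroundings. The region chr17:39984841-39985063 held 119.5 in eWAT (rank 21) and 204.9 in iWAT (rank 18), but stood only 4.23 and 4.59 times above its surroundings, close to the minimum of 4. Its nearest BAT site was 773.7 kb away, and no other eWAT or iWAT site lay within 50 kb. The region chr11:3000348-3000570, near the start of its chromosome, held 124.3 (rank 19) and 173.4 (rank 22) at 4.49 and 4.62 times its surroundings, and a BAT site of 185 lay 588 bp away. No site under 4 times its surroundings was in the BAT list, and the part of that minimum in these absences was not tested.

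White-pair regions clear of any BAT site were few. Of the 941, 222 (23.6%, 20.9 to 26.4) had no BAT site within 1 kb, 70 (7.44%, 5.84 to 9.31) none within 10 kb and 20 (2.13%, 1.30 to 3.26) none within 50 kb. As a share of all regions strong in both white lists, 2.26% (1.97 to 2.57) had no BAT site within 1 kb, against 2.77% (2.43 to 3.14) of those strong in iWAT and BAT without an eWAT site and 0.880% (0.689 to 1.11) of those strong in eWAT and BAT without an iWAT site. With lists of equal length the shares were 1.67% (1.40 to 1.99), 2.47% (2.13 to 2.85) and 0.939% (0.733 to 1.19), from 129, 183 and 70 regions. The white pair was thus not the pair with the most such regions. Without a site of the missing list within 10 kb were 0.712% (0.555 to 0.898), 0.485% (0.348 to 0.658) and 0.0855% (0.0344 to 0.176) as deposited. At equal length the order of the former pair turned, with 0.428% (0.295 to 0.601) for the white pair and 0.527% (0.375 to 0.720) for iWAT and BAT, and the intervals overlapped in both cases. By tag count, a high white rank and the lack of a BAT site within 1 kb seldom met. The 4 classes were cut on the same tag counts that chose the regions. When strength was ranked by fold over the surroundings instead, 987 of 1257 regions had no BAT site within 1 kb. Of the regions in the lowest of the 4 classes by white rank 4.19% lacked a BAT site within 1 kb, and of those in the highest class 0.658% did.

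The 222 regions fell into groups with unlike surroundings. The 152 regions with the nearest BAT site at 1 to 10 kb stood a median of 5.61 times above their surroundings in eWAT (quartiles 4.56 and 7.55) and 6.76 in iWAT (5.36 and 10.7). In 89 of them (58.6%, 50.3 to 66.5) the fold was under 6 in at least 1 white list, a value near the minimum of 4. Their nearest BAT site was strong in 84 cases (55.3%), belonged to a region of all 3 lists in 90, and 106 (69.7%) had such a common region within 10 kb. The 70 regions over 10 kb from a BAT site stood 10.7 times above their surroundings in eWAT (8.99 and 14.4) and 14.3 in iWAT (10.2 and 19.2), and 9 of them (12.9%, 6.05 to 23.0) were under 6. For comparison, 10.9% (10.3 to 11.6) of the 8897 strong regions held by all 3 lists were under 6 in at least 1 white list, as were 16.3% (13.1 to 19.8) of the 492 regions with a BAT site closer than the BAT spacing. The share was 37.0% (30.7 to 43.6) in the 227 other white-pair regions with a BAT site within 1 kb, and 27.8% (25.0 to 30.8) over all 941. How far the minimum fold kept BAT sites out near the 152 regions was not tested.

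**Figure D3:**
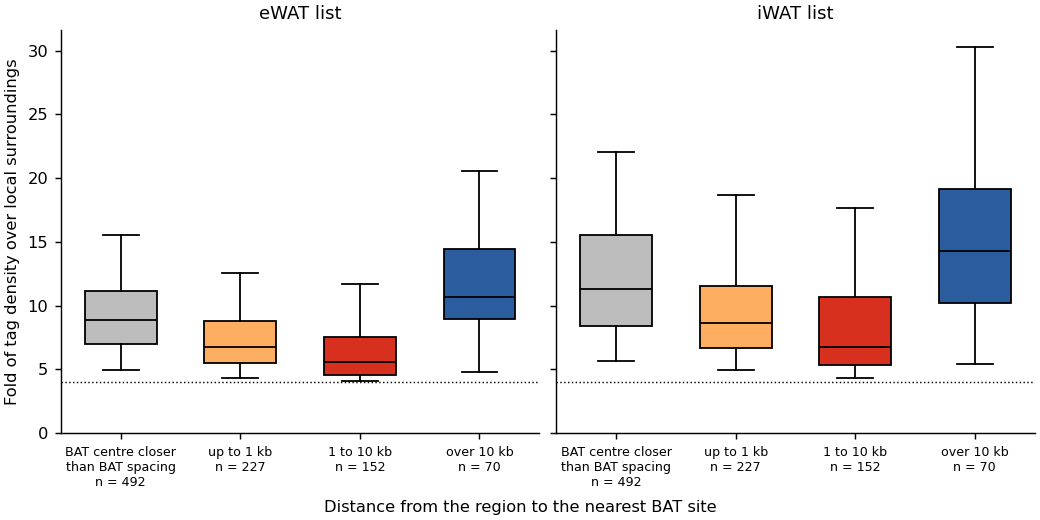
Fold of tag density over the local surroundings (y axis) in the eWAT and the iWAT list for white-pair regions grouped by distance to the nearest BAT site; boxes span the quartiles with the median as a line, whiskers run from the 5th to the 95th percentile, and the dotted line is the lowest fold in the list, 4. The regions with a BAT site at 1 to 10 kb lie lowest, with medians of 5.61 and 6.76, and those over 10 kb away lie highest, with 10.7 and 14.3.

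Tag counts went the other way. The regions over 10 kb from a BAT site held a median of 16.1 in eWAT (27 tags) and 23.6 in iWAT (24 tags), against 17.8 (30 tags) and 28.6 (29 tags) in the 492 regions beside a BAT site. The surroundings of the 70 regions were also thinner in sites. Within 50 kb of them the median number of sites was 5 in eWAT and 5 in iWAT, their own site included, and 1 in BAT, where the white-pair regions as a whole had 6, 7 and 5. The lower BAT number follows in part from how the 70 were picked.

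The 20 regions with no BAT site within 50 kb lay in stretches with few white sites, with a median of 2.5 eWAT and 2 iWAT sites within 50 kb, their own included. The choice leaves out white sites there that overlap a BAT site, so these low numbers follow in part from how the 20 were picked. The 20 regions were spread over 11 chromosomes, none within 50 kb of another white-pair region, and held 1 to 4 eWAT and 1 to 5 iWAT sites within 50 kb. All but chr17:39984841-39985063 stood at least 6 times above their surroundings in both white lists, with medians of 14.4 in eWAT and 15.5 in iWAT over the 20. The next farthest was chr17:48956062-48956337, with 14.3 in eWAT (24 tags) and 20.7 in iWAT (21 tags), 16.7 and 35.6 times above its surroundings and 406.6 kb from a BAT site. At chr3:25261041-25261334 the values were 18.4 and 23.6, with 216.8 kb to a BAT site. The region chr1:73390981-73391219 held 13.7, at the limit, in eWAT and 32.5 in iWAT, 169.3 kb from BAT, and chr13:10209947-10210190 held 24.4 in eWAT and 20.7, at the limit, in iWAT, 134.5 kb from BAT. Of these 4, 3 sat at the limit in 1 white list, so a loss of 1 tag would have removed them.

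Further regions stood out by their fold. On chromosome X the region chrX:156056924-156057185 held 17.2 in eWAT, 20.8 times above its surroundings, and 26.6 in iWAT, 29.0 times above, and was 114.1 kb from a BAT site. The region chr1:129174810-129175058 held 18.4 at 20.6 times and 20.7 at 25.7 times, 58.6 kb from BAT. The highest fold of all in the lower of both lists, 23.1 in eWAT beside 34.3 in iWAT, belonged to chr11:87781351-87781600, but there a BAT site with 11.1 normalized tags lay 74 bp away. Singled out after their values were seen, chr1:155650048-155650273 and chr1:82569962-82570201 combined a high rank with distance from BAT. The first held 26.2 in eWAT and 41.4 in iWAT at 11.4 and 21.5 times its surroundings, 23.8 kb from BAT. The other held 25.6 and 32.5 at 15.8 and 18.6 times, 68.3 kb from BAT.

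White-pair regions were spread along all 21 chromosomes with sites. The number ran from 74 on chromosome 2 and 65 on chromosome 11 down to 7 on chromosome X and 1 on chromosome Y. Set against the regions strong in both white lists on the same chromosome, the share ran from 11.0% on chromosome 10 (62 of 564) to 5.56% on chromosome X (7 of 126, 2.26 to 11.1) and 5.26% on Y (1 of 19). All 21 intervals included the overall 9.56%. Only 3 regions lay within the first 3200000 bp of a chromosome, on chromosomes 1, 11 and Y.

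**Figure D4:**
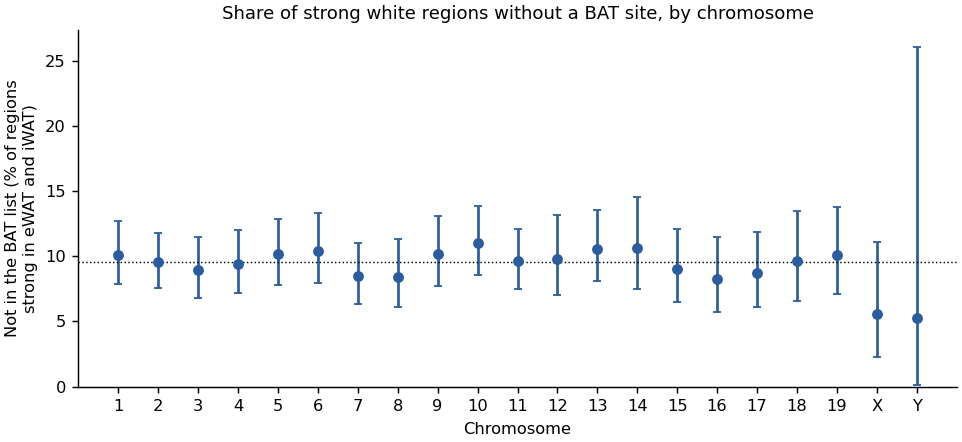
Share of the regions strong in both eWAT and iWAT that BAT did not hold (y axis, %) on each chromosome (x axis), with exact 95% intervals; the dotted line is the share over all chromosomes, 9.56%. Every interval includes the line, and the points run from 5.26% to 11.0%.

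Most white-pair regions stood alone. Another one lay within 50 kb of 141 regions (15.0%, 12.8 to 17.4), and 800 had none. Over all 11197 regions of the eWAT and iWAT lists only, a far larger set, 53.1% had another of that set as close. Of the 8897 strong regions held by all 3 lists, 10.6% (10.0 to 11.3) had a white-pair region within 50 kb. In the mirrored sets, which hold fewer regions, 14.8% (12.3 to 17.6) of those in iWAT and BAT and 10.4% (8.08 to 13.1) of those in eWAT and BAT had another of their kind that close. Chained at steps of at most 50 kb, the 141 regions formed 55 pairs, 9 groups of 3 and 1 group of 4. Of these 65 groups, 29 included a region over 1 kb from a BAT site. Of the 222 regions over 1 kb from BAT, 35 had another white-pair region within 50 kb. Counting only the 222 themselves as neighbours, 210 had none and 12 formed 6 pairs, at chr2:9654702-9671912, chr3:115968400-116001767, chr5:32149489-32168857, chr9:13806941-13849467, chr10:75058917-75090396 and chr11:44792807-44818136. Both regions of the chromosome 10 pair were over 10 kb from a BAT site, at 15.1 and 15.6 kb. In the chromosome 3 pair the distances were 2.09 and 28.2 kb, in the chromosome 2 pair 7.53 and 24.4 kb and in the chromosome 9 pair 8.99 and 23.6 kb.

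The group of 4 spanned 8.89 kb at chr6:51120370-51129260. Its regions held 30.3, 28.5, 28.5 and 15.5 in eWAT and 39.4, 37.4, 60.1 and 20.7 in iWAT. They stood 4.16 to 4.69 times above their surroundings in eWAT and 4.30 to 6.96 times in iWAT, so all were near the minimum in eWAT. The BAT list held 2 sites in this span, both absent from the white lists, with 54.0 and 37.7 normalized tags at the 99.3rd and 97.0th percentiles of BAT. The span thus held called sites of high tag count from every library.

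The 4 groups of 3 with the highest summed ranks also contained BAT sites. At chr11:45879137-45903180 the BAT sites nearest to the regions lay 75, 40 and 2605 bp away, and the third region, chr11:45902934-45903180, held 28.5 in eWAT and 33.5 in iWAT at 6.29 and 6.14 times its surroundings. The group at chr13:113115535-113191657 lay among 11 eWAT, 11 iWAT and 10 BAT sites, of which 6 regions were common to all, and its BAT distances were 42, 382 and 1 bp. In the group at chr6:17228582-17259422 they were 140, 612 and 33 bp, and in that at chr19:20567186-20602816 they were 240, 129 and 373 bp. In these 4 groups 11 of the 12 regions had a BAT site within 1 kb.

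**Figure D5:**
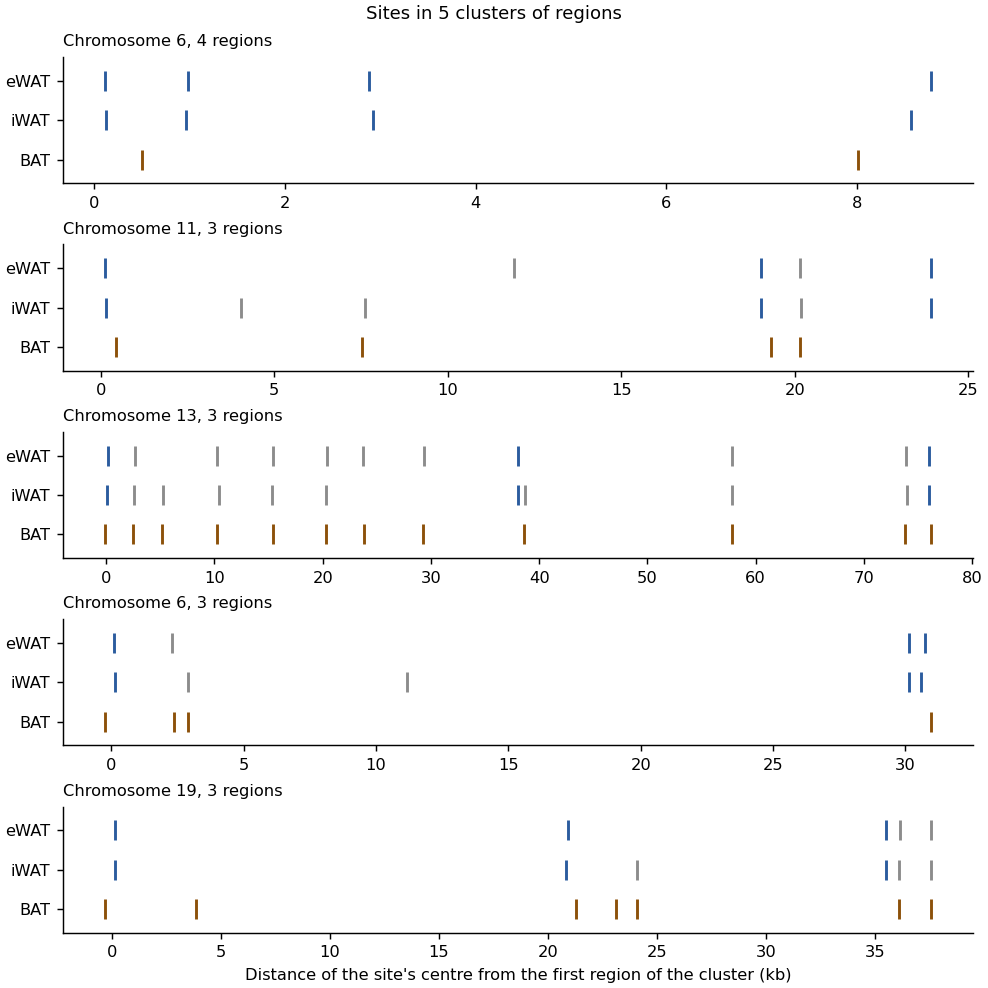
Centres of the called sites in 5 groups of white-pair regions, the group of 4 and the 4 of the 9 groups of 3 with the highest summed ranks, as distance from the first region (x axis, kb), with 1 line each for eWAT, iWAT and BAT; blue marks are sites of white-pair regions, grey marks other white sites and brown marks BAT sites, and 2 kb on either side are included. The chromosome 6 group of 4 has 2 BAT sites, each beside a white site, and the other groups also hold BAT sites close to most blue marks.

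A region of all 3 lists lay within 10 kb of 421 white-pair regions (44.7%, 41.5 to 48.0), against 30.1% of all regions in the eWAT and iWAT lists only. The mirrored sets gave 48.6% (44.9 to 52.2) for iWAT and BAT and 43.6% (39.6 to 47.6) for eWAT and BAT. A region of all 3 lists contains a BAT site, so the share for the white pair is tied to the distance to BAT. A BAT site lay within 10 kb of 92.6% of white-pair regions and of 54.0% of the eWAT and iWAT regions not strong in both. The clonal fold, as deposited, had a median of 0.94 in both white lists for white-pair regions, 0.93 in the strong regions of all 3 lists and 0.97 over all sites. The clonal fold fell as the tag number rose. In iWAT it was 0.96 at 21 tags (chr17:48956062-48956337) and 0.87 at 62 tags (chr8:47953830-47954053). It thus largely restates the tag count that the rule used. In the 2 highest white-pair regions, which had the most tags, it was lower. It was 0.66 in eWAT and 0.65 in iWAT at chr17:39984841-39985063, and 0.65 and 0.69 at chr11:3000348-3000570.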

How the data were processed

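The authors deposited 1 list of DNase-hypersensitive sites per depot. STAR, HOMER and the build mm9 are named in the submitters' processing notes, without roles, versions or settings. Pooling of cultures is not stated in the labels. Per the file headers, each site has a normalized tag count (a signal, deposited relative to an unstated library total), a focus ratio (a fraction), a findPeaks score, a fold (ratio) and a p-value over its local surroundings and a clonal fold. All coordinates are in mm9 as deposited. An mm9 genome or annotation was not used here, so no region is assigned to a gene, the planned gene lists and motifs were not analysed, and no sequence is printed.

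Here sites were merged where they overlapped or touched. Sites with exactly the tag count that closes the top 25% of a list counted as strong. The step of 1 tag was fitted per list, and 99.99% of values or more, after rounding, were whole multiples (tolerance 0.05, or 0.005 below 10). Medians have order-statistic intervals and shares Clopper-Pearson intervals. Regions named were the 10 with the highest summed percentiles, the 5 farthest from and the 5 nearest to a BAT site, the 5 largest groups (ties by summed percentile), 3 on either side of the limit and the 3 highest by the lower fold. The regions and the rules were chosen with earlier results of these data known. The code was tested on simulated data with 99297 regions, of which 709 were planted to meet the rule, and recovered 100% of these. The simulated regions were spaced well apart, so sites of different lists that nearly touch were not covered. Scripts ran under Python 3.11.15 with scipy 1.17.1, numpy 2.4.6 and pandas 2.3.3.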

Additional observations from a re-analysis of the deposited data

How the results depend on the processing

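The alternatives below are compared with the values given above: 941 regions, a median distance to BAT of 118 bp, 76.4% with a BAT site within 1 kb, 222 with none, 15.0% with another such region within 50 kb and 44.7% with a common region within 10 kb. When sites up to 200 bp apart were merged too, 395 regions met the rule, with 2105 bp, 36.7%, 9.62% and 64.3% for distance, BAT site, other region and common region. Of these, 250 had no BAT site within 1 kb, so the wider merging also brought in regions. Counting a BAT site only with at least 50% overlap gave 1387 regions, with 57 bp, 84.0%, 19.8% and 40.3%. This larger set includes regions that overlap a BAT site by less, which shortens the distance. Lists of equal length gave 655 regions, with 80.3% that had a BAT site, 129 regions without one and 12.7% with another region. A p-value over the surroundings of at most 1e-06 gave 159 bp, 67.8% with a BAT site and 38.9% with a common region. The top 10% by tag count held 245 regions, 88.2% with a BAT site and 29 without, and 9.39% with another region. Ranking by fold over the surroundings gave 16227 bp, 21.5% with a BAT site and 987 without, 6.21% with another region and 12.6% with a common region. Ranking by the findPeaks score, using autosomes only and, both chosen after seeing the data, not counting sites tied at the limit and leaving out the few regions of extreme tag count moved none of the 6 values beyond its interval or, for the 2 counts, by over 1.5 times. The number without a BAT site within 1 kb was itself added after seeing the data. No paired analysis was possible because each depot has 1 library. Depth limits the ranks: the limits of the top 25% correspond to 23, 21 and 21 tags in eWAT, iWAT and BAT.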

Other observations

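Ranking by fold over the local surroundings, in place of the tag count, picked a largely different set. It held 1257 regions, of which 193 were also among the 941, which is 20.5% of the 941 and 15.4% of the 1257. The fold-ranked regions had few tags, with a median of 17 in eWAT and 15 in iWAT, against 29 and 28 for the white-pair regions. They lay a median of 16227 bp from the nearest BAT site, and 987 of them had none within 1 kb. No test between depots is possible for either set.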
